A study of Mus musculus with 7 samples.

Results

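Pan-endothelial markers are genes whose products sit on the surface or in the junctions of nearly all endothelial cells, or are stored and secreted by them. The members were taken by symbol from a list of 10 such genes: the junction genes Cdh5, Pecam1 and Mcam, the surface genes Emcn, Robo4, Cd93, Clec14a and Ecscr, and the genes of the secreted proteins Egfl7 and Vwf. Of the 10, 9 were among the 12756 genes of the deposited table. Expression of Clec14a was not analysed here, and only its promoter window was searched. The rule uses symbols and no measured value, although the list was drawn up with earlier results of these data known. The 9 genes passed the filter on low values, which was at least 1 CPM (counts per 1000000 reads over the listed genes) in at least 3 libraries.

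The cells lining blood vessels hold on to each other through VE-cadherin, the product of Cdh5, which is linked to the actin cytoskeleton by catenins. PECAM-1, MCAM and the mucin endomucin add further contacts or keep cells apart, while ROBO4 and CD93 are receptors that take part in vessel stability and growth. Because these genes mark endothelium in every organ, they are used to recognise endothelial RNA in a mixed tissue such as the retina.

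RNA was obtained from retinas of adult C57BL/6 mice of the genotype Cdh5-CreERT2 Rpl22 tm1.1Psam, which both groups carried. In this system, known as RiboTag, a Cre recombinase driven by regulatory sequence of Cdh5 and activated by tamoxifen turns on an HA-tagged form of the ribosomal protein Rpl22, so that ribosomes of the recombined cells can be captured through HA. Mice were given control IgG (3 libraries) or anti-Dll4 (4 libraries), an antibody against a ligand of Notch receptors. The promoter of one of the 9 genes, Cdh5, thus also drives the tagging. Nothing in the labels ties each library to an animal of its own, and p-values reflect spread among the libraries sequenced, which may be technical in part.

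The table held 1356192 to 1771086 reads per library. Libraries carry the number in their column name; for control IgG 1 that number is in no control title. Input RNA was not analysed here, so enrichment of endothelial RNA over the retina was not measured. Endothelial markers were detected beside abundant RNA of other cells: summed over 16 rod markers, CPM ran from 27777 to 28933 in the control and from 12656 to 22630 in the anti-Dll4 libraries. Summed over the 9 endothelial markers, CPM ran from 414 to 939 in the control and from 1266 to 2859 in the anti-Dll4 libraries.

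Compared with control IgG, anti-Dll4 libraries had higher mean log2(CPM + 1) values for each of the 9 genes, and none of these differences passed the test. The median difference was 1.70 on the log2 scale, against -0.14 over the 10899 genes tested, of which 45.5% had a positive difference. At a Benjamini-Hochberg adjusted p under 0.05 in limma, 0 of the 9 were called, where 0.119% of all tested genes were called. An unadjusted p under 0.05 was found for 2 of the 9, Egfl7 and Cd93, both higher, against 3.68% of tested genes with such a p and a higher level and 7.09% with such a p in either direction. Limma's voom on the whole reads called 0 of the 9 as well, where it called 0.349% of all genes. Egfl7 alone had groups that did not overlap, with every anti-Dll4 library above every control library, as did 3.84% of tested genes. In such bulk RNA, more endothelial cells, more tagged ribosomes per cell, more RNA of a gene per cell and a smaller share of rod RNA cannot be told apart.

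**Figure D1:**
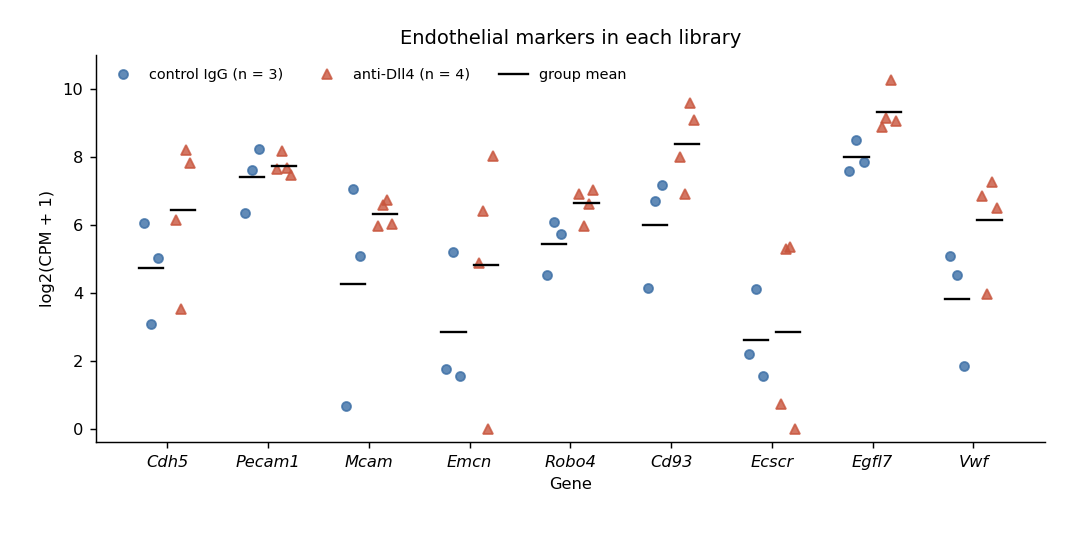
Levels of the 9 endothelial markers as log2(CPM + 1) on the vertical axis, with 1 point per library (circles, 3 control IgG; triangles, 4 anti-Dll4) and bars at group means. Egfl7 is the gene whose 4 anti-Dll4 libraries lie above its 3 control libraries, while Ecscr and Emcn have anti-Dll4 libraries at 0 CPM.

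Egfl7 encodes a secreted protein of endothelial cells that associates with the matrix around vessels and has been linked to Notch signalling and to vascular tube formation. It had the most reads of the 9 genes in 5 of the 7 libraries, the exceptions being control IgG 4, where Pecam1 had more, and anti-Dll4 4, where Cd93 had more. Egfl7 was at 192, 361 and 229 CPM in control IgG 1, 3 and 4, from 325, 489 and 351 reads. The anti-Dll4 libraries 1 to 4 gave 465, 557, 1216 and 529.6 CPM, from 695, 910, 2147 and 938 reads. Anti-Dll4 3 stood highest, and the lowest anti-Dll4 library was above the highest control library. Mean CPM was 260.4 ± 88.7 (SD, n = 3) in the control and 692 ± 352 (SD, n = 4) in the anti-Dll4 libraries, a log2 difference of 1.34 ± 0.40 (SE, 95% interval 0.51 to 2.18, limma adjusted p = 0.358).

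An intron-hosted microRNA, miR-126, lies within Egfl7 and is known as an abundant endothelial microRNA. Its mature 3p strand is printed because a change of the host gene is often read as one of miR-126, which these libraries of polyadenylated RNA do not measure. The sequence is from RefSeq (GRCm38.p6), with the seed, bases 2 to 8, in capitals.
mmu-miR-126a-3p, chr2:26591402-26591423, plus strand: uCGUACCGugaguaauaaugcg

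Promoter windows of 300 bases, from 250 before a start site to 50 after it, were taken from RefSeq (GRCm38.p6). They covered 5 of the 10 genes, in 7 windows: 3 of Egfl7 and those of Emcn, Robo4, Mcam and Clec14a. Clec14a has no expression values here. Windows of the 10 genes on 1 chromosome were left out of the search. The shares over all windows include that chromosome. The windows of Egfl7 that hold the letters AGGAAG, a core of the motif bound by ETS factors, and the window of Robo4 are shown because these 2 genes had the most similar profiles over the 7 libraries among the 36 pairs of the 9 genes. Similarity was the root mean square distance between log2(CPM + 1) profiles, each centred on its own mean, and was 0.61 for Egfl7 and Robo4 against a median of 1.88 over pairs. Profiles were not scaled, so genes that vary little between libraries lie near each other by this measure. The next nearest pairs were Pecam1 with Robo4 (0.71) and with Egfl7 (0.83). AGGAAG was searched on both strands, and each match is in capitals.
Egfl7, first window, chr2:26580833-26581132, plus strand: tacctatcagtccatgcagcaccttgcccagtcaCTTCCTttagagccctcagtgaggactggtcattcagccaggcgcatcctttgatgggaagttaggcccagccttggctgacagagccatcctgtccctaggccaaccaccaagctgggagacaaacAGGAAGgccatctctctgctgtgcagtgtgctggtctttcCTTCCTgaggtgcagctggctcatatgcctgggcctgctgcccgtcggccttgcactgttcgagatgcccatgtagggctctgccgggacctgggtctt
Egfl7, second window, chr2:26583615-26583914, plus strand: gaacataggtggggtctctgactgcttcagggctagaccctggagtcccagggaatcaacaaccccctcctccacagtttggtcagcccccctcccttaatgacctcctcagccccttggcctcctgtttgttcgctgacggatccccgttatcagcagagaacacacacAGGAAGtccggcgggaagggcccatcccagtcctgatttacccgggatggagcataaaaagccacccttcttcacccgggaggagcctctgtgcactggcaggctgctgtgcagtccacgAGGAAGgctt
Robo4, chr9:37401722-37402021, plus strand: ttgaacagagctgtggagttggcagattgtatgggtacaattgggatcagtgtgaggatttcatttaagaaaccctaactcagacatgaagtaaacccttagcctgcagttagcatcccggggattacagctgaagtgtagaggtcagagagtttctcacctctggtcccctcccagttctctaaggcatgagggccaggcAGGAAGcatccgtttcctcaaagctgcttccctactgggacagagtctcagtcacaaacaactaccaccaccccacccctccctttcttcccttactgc
In the first Egfl7 window the matches begin 216, 89 and 49 bases before the start site, and in the second 80 bases before it and 40 bases after it. The single Robo4 match begins 49 bases before the start site. AGGAAG was in 4 of the 7 windows, those above and the one of Emcn, and in 35.4% of 32851 windows of this length in the mouse table. The GATA letters AGATAA were in 0 of the 7 and in 11.2% of all windows. The letters TGGGAA, bound by RBPJ, the DNA-binding partner of Notch, were in 1 of the 7 (the first Egfl7 window) and in 25.6% of all. Of the 11097 windows of tested genes, 32.7% held AGGAAG, 6.3% AGATAA and 22.8% TGGGAA. No match overlapped one of another motif. The files do not show which start site was used, and a match is a run of letters only.

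Among the junction genes, Cdh5 varied widely in both groups. VE-cadherin, its product, is the adhesion molecule of endothelial adherens junctions. Cdh5 was at 65.5, 7.37 and 31.3 CPM in control IgG 1, 3 and 4, and at 69.6, 10.4, 292 and 225 CPM in the anti-Dll4 libraries 1 to 4. Anti-Dll4 3 and 4 were the 2 highest libraries, anti-Dll4 1 was close to control IgG 1, and anti-Dll4 2 was below 2 of the control libraries. The log2 difference was 1.70 ± 1.10 (SE, 95% interval -0.58 to 3.99, limma adjusted p = 0.768).

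Pecam1, which encodes the junctional immunoglobulin-family protein PECAM-1 (CD31) of endothelium, platelets and leukocytes, had 79.7, 195 and 299.8 CPM in the control libraries. Anti-Dll4 libraries had 199.5, 288, 200.5 and 174 CPM. These 4 values lay within the range of the 3 control values. Mean CPM was 191 ± 110.1 (SD, n = 3) and 216 ± 49.9 (SD, n = 4), and the log2 difference of 0.34 ± 0.53 (SE) had a 95% interval of -0.76 to 1.43 (limma adjusted p = 0.916). A difference of 1 in mean log2(CPM + 1) is within that interval.

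Mcam (CD146), an adhesion molecule of endothelial junctions that is also made by pericytes and smooth muscle, was set apart by 1 library. Control IgG 1 had 1 read (0.59 CPM), while control IgG 3 and 4 had 132 and 32.6 CPM. The anti-Dll4 libraries lay close together at 61.6, 95.4, 104.8 and 63.8 CPM, all below control IgG 3. Mean CPM was 55.1 ± 68.5 (SD, n = 3) in the control and 81.4 ± 21.9 (SD, n = 4) in the anti-Dll4 libraries, a ratio of 1.48. The log2 difference was larger, 2.06 ± 1.20 (SE, limma adjusted p = 0.745), and it was 0.26 without control IgG 1 and 3.46 without control IgG 3. Summed over 5 pericyte markers in the table, CPM was 85.0 to 189.5 in the control and 80.1 to 259 in the anti-Dll4 libraries, and over 4 smooth muscle markers 478 to 599 and 415 to 568.5. Of the 4 pericyte markers tested, 1 had a positive and 3 a negative difference. Kcnj8, a pericyte marker below the filter, had no reads in the control libraries and 1, 14, 0 and 0 in the anti-Dll4 libraries. The part of these cells in the Mcam values was not tested.

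Of the surface genes, Cd93 had the largest difference of the 9. It encodes a transmembrane glycoprotein with a C-type lectin-like domain that binds the matrix protein multimerin 2 and is raised in growing vessels. Cd93 was at 16.5, 103 and 143 CPM in control IgG 1, 3 and 4 and at 252, 118, 759 and 539.8 CPM in the anti-Dll4 libraries 1 to 4. The overlap was due to anti-Dll4 2, which fell between control IgG 3 and control IgG 4, while the other 3 anti-Dll4 libraries were above all controls. Mean CPM was 87.7 ± 64.8 (SD, n = 3) and 417 ± 288 (SD, n = 4), and the log2 difference was 2.38 ± 0.72 (SE, 95% interval 0.89 to 3.87, limma adjusted p = 0.358). Without control IgG 1 the difference went to 1.44. Monocytes and early blood cells also make CD93. Of 11 markers of microglia and macrophages 6 were in the table, summing to 23.5 to 56.0 CPM in the control and 50.8 to 99.1 CPM in the anti-Dll4 libraries. It was 99.1, 50.8, 53.8 and 51.4 CPM in anti-Dll4 libraries 1 to 4, and the part of these cells in the Cd93 values was not tested.

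Robo4, an endothelial receptor of the Roundabout family that limits leak and sprouting, had 21.8, 67.1 and 52.1 CPM in the control and 119, 61.8, 96.3 and 129.9 CPM in the anti-Dll4 libraries. Anti-Dll4 2 lay just under control IgG 3, and the remaining 3 anti-Dll4 libraries were above all controls. Mean CPM was 47.0 ± 23.1 (SD, n = 3) and 102 ± 30.1 (SD, n = 4), a log2 difference of 1.18 ± 0.76 (SE, limma adjusted p = 0.767). Without control IgG 1 it was 0.72.

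Emcn encodes endomucin, a sialomucin of the luminal surface of capillaries and veins that hinders leukocyte adhesion. Its reads came and went between libraries: 4, 48 and 3 in control, and 42, 136, 0 and 462 in the anti-Dll4 libraries 1 to 4. The value of 0 in anti-Dll4 3, at a depth where 3 reads are 1.70 CPM, stood beside the highest levels of Cdh5, Cd93, Egfl7 and Vwf, which were in that same library. Mean CPM was 13.2 ± 19.2 (SD, n = 3) and 93.0 ± 117 (SD, n = 4), and the log2 difference of 1.99 ± 1.83 (SE, limma adjusted p = 0.857) went to 0.92 without anti-Dll4 4 and to 3.60 without anti-Dll4 3.

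Ecscr encodes a small transmembrane protein of endothelial cells that takes part in migration and in signalling of VEGF receptors. It had the fewest reads of the 9 genes, 164 in all: 6, 22 and 3 in control, and 1, 62, 70 and 0 in the anti-Dll4 libraries. With 2 anti-Dll4 libraries above all controls and 2 below all controls, it had a log2 difference of 0.22 ± 1.78 (SE, 95% interval -3.47 to 3.92, limma adjusted p = 0.988). The difference turned to -0.20 in voom, to -0.30 without control IgG 4, and to -0.59 or -0.61 without anti-Dll4 2 or anti-Dll4 3, so no direction is given for Ecscr.

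Vwf encodes von Willebrand factor, the multimeric protein that tethers platelets to injured vessels and is stored in Weibel-Palade bodies, chiefly of venous endothelium. Vwf was at 32.5, 22.1 and 2.61 CPM in the control and at 114.5, 14.7, 151 and 89.2 CPM in the anti-Dll4 libraries. Anti-Dll4 2 lay within the control range and the other 3 above it. Mean CPM was 19.1 ± 15.2 (SD, n = 3) and 92.3 ± 57.6 (SD, n = 4), and the log2 difference was 2.33 ± 1.17 (SE, 95% interval -0.11 to 4.76, limma adjusted p = 0.706). It was 1.34 without control IgG 4, which had 4 reads. Platelets also carry Vwf and Pecam1. Over the 4 platelet markers in the table of 6 listed, CPM summed to 34.8 to 100.4 in the control and 4.89 to 167 in the anti-Dll4 libraries. Among the latter the sum was highest in anti-Dll4 3 and lowest in anti-Dll4 2, as Vwf was. In control IgG 1, 3 and 4 it was 34.8, 73.7 and 100.4 CPM, the reverse of the order of Vwf. Pecam1 had its highest anti-Dll4 value, 288 CPM, in anti-Dll4 2. The part of platelet RNA was not tested.

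**Figure D2:**
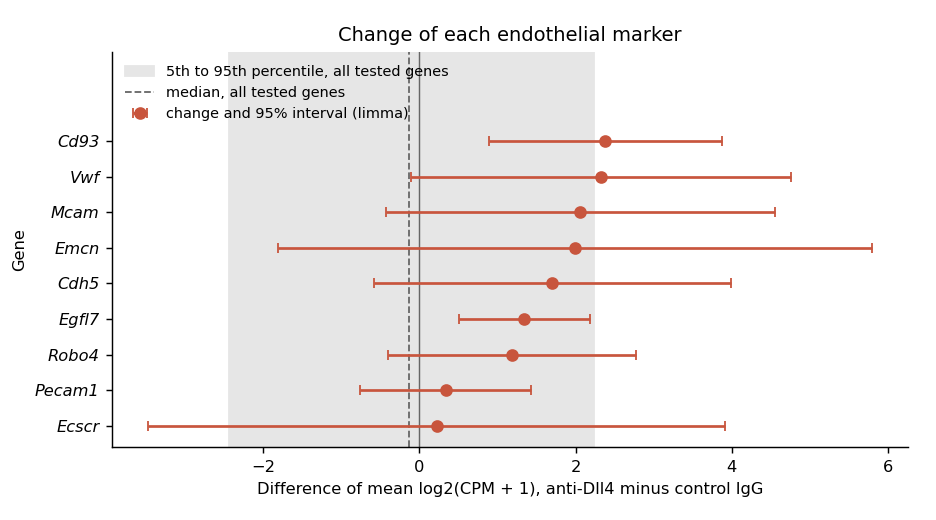
Difference of mean log2(CPM + 1), anti-Dll4 minus control IgG, for each of the 9 genes (points) with its 95% interval from limma (bars). The intervals of Egfl7 (0.51 to 2.18) and Cd93 (0.89 to 3.87) lie above 0 before adjustment, and the grey band spans the 5th to 95th percentile of all tested genes.

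The spread between libraries of a group was far above that of counting. At the group's pooled rate, the variance of Egfl7 reads was 45.1 times that of counting alone between control libraries and 302 times between anti-Dll4 libraries. For Pecam1 these ratios were 104 and 19.3, and for Robo4 18.2 and 14.8. Intervals from read counts would therefore have been too narrow, and none is given. Compared with genes of like mean level (within 0.5 on the log2 scale), 8 of the 9 had a larger SD than the median gene between control libraries, and 5 of the 9 between anti-Dll4 libraries. Mcam had the widest SD between control libraries (3.27 log2 units) and Emcn between anti-Dll4 libraries (3.47). Pecam1, Mcam and Robo4 had anti-Dll4 SDs of 0.31, 0.39 and 0.47, under the median of genes of like level.

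Control IgG 1 was the lowest library for 5 of the 9 genes (Pecam1, Mcam, Robo4, Cd93 and Egfl7), and anti-Dll4 3 the highest for 5 (Cdh5, Cd93, Ecscr, Egfl7 and Vwf). Leaving out these libraries bears on most of the 9 differences. Pecam1 went from 0.34 to -0.19 without control IgG 1, and Cdh5 from 1.70 to 1.11 without anti-Dll4 3, to 0.88 without control IgG 3 and to 2.67 without anti-Dll4 2. Egfl7 moved least in proportion, from 1.04 without anti-Dll4 3 to 1.60 without control IgG 3. Its unadjusted p was under 0.05 in 15 of 16 alternative fits, and that of Cd93 in 16 of 16, while no adjusted p of a gene of the 9 was below 0.156. These fits reuse the same libraries, and both genes already had such a p in the main fit, so the counts are not independent tests. Without the mean-variance trend, the unadjusted limma p was 0.0823 for Egfl7 and 0.0487 for Cd93.

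**Figure D3:**
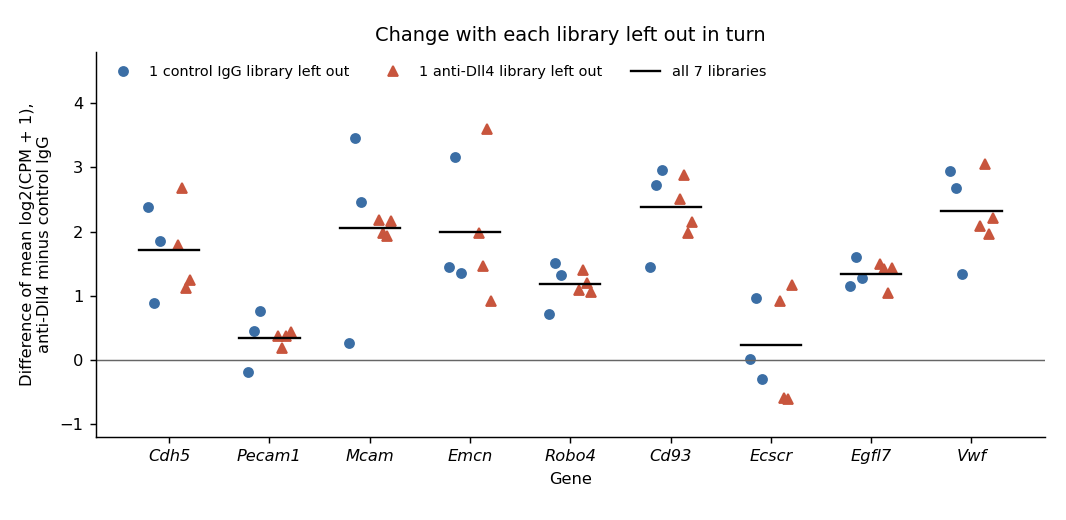
Difference of mean log2(CPM + 1) for each of the 9 genes with 1 control IgG library (circles) or 1 anti-Dll4 library (triangles) left out, beside the value from all 7 libraries (bars). Mcam falls to 0.26 without control IgG 1, Ecscr and Pecam1 cross 0, and Egfl7 stays between 1.04 and 1.60.

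As a sum, the 9 genes made up 0.0716% ± 0.0271 (SD, n = 3) of all CPM in the control and 0.186% ± 0.0747 (SD, n = 4) in the anti-Dll4 libraries. Without Egfl7 and Cd93 the summed CPM was 368 ± 143 and 753 ± 187. The make-up of that sum differed by gene. Egfl7 held 28.8% to 46.3% of it in the control and 26.3% to 44.0% in the anti-Dll4 libraries, Robo4 5.27% to 7.15% and 3.37% to 9.09%. Pecam1 held 19.2% to 37.7% in the control and 7.01% to 22.8% in the anti-Dll4 libraries, and Cd93 3.99% to 18.0% and 9.32% to 26.8%. Set against 18 other endothelial surface genes in the table, the sum of the 9 was 12.4%, 17.0% and 22.8% in the control libraries and 15.5%, 15.4%, 32.2% and 29.0% in the anti-Dll4 libraries 1 to 4. These shares overlapped between the groups. The 18 genes summed to a mean of 4114 CPM in the control and 8121 CPM in the anti-Dll4 libraries. Podxl (1370 and 2903 CPM) and Bsg (1092 and 2358 CPM) held the largest parts of that sum. How far RNA of other cells contributed to it was not tested.

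Rod markers had lower sums in each anti-Dll4 library than in any control library. Their summed CPM was 22630, 20314, 12656 and 16797 in the anti-Dll4 libraries 1 to 4, where the sum of the 9 endothelial markers was 1311, 1266, 2859 and 2012. Anti-Dll4 3 had the least rod RNA and the most endothelial marker RNA. Of the 16 rod markers, all in the table, 13 had a negative difference and none was called (limma). Over all tested genes, 45.5% had a positive difference and 0.119% were called. Sums of other retinal cells overlapped between the groups. Cone markers summed to 812 to 1101 CPM in the control and 663 to 1158 CPM in the anti-Dll4 libraries. For bipolar cells these ranges were 1448 to 1928 and 1089 to 1973 CPM, and for Mueller glia 1556 to 2565 and 1696 to 2610 CPM. Of 5 red blood cell markers, Hba-a1 and Hba-a2 had the same reads in every library and were counted once. The sum then ran from 831 to 10817 CPM in the control and from 405 to 21136 CPM in the anti-Dll4 libraries. The part of the differing rod share in the endothelial differences was not tested.

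**Figure D4:**
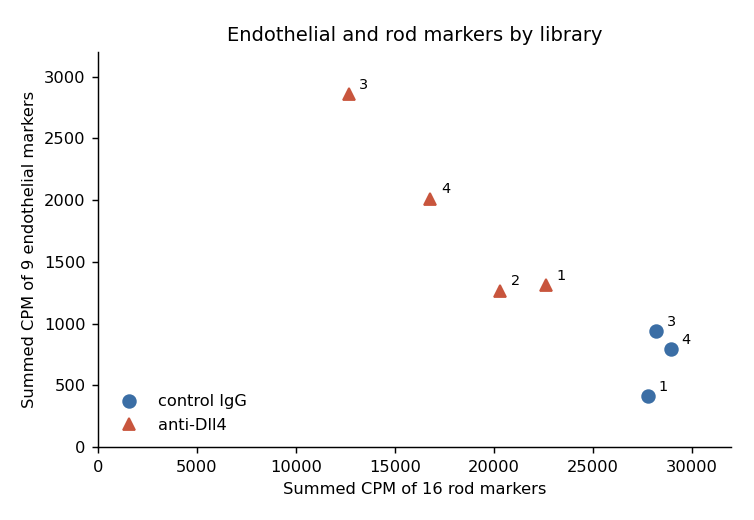
Summed CPM of the 9 endothelial markers (vertical axis) against summed CPM of 16 rod markers (horizontal axis), with 1 point per library and its column number. Control libraries sit together at 27777 to 28933 rod CPM and at most 939 endothelial CPM, and anti-Dll4 3 is at 12656 and 2859.

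The partners of the junction genes gave mixed differences. Of 15 adherens junction partners tested, 10 had a positive and 5 a negative difference (median 0.23), and 0 were called, where 0.119% of tested genes were. Ctnna1 encodes alpha-catenin, which ties the cadherin complex to actin. Control libraries held 93, 13 and 11 of its reads and anti-Dll4 libraries 190, 319, 425 and 394. These groups did not overlap, with the anti-Dll4 group higher, as was so for 3.84% of tested genes. The log2 difference was 3.51 ± 0.82 (SE, limma adjusted p = 0.137). Rasip1, a Rap1 effector needed for vascular lumens, was at 248 ± 137 CPM (SD, n = 3) and 692 ± 143 CPM (SD, n = 4), a difference of 1.60 ± 0.40 (SE, limma adjusted p = 0.178). Ctnnb1, which encodes beta-catenin in most cell types, had 882 ± 187 and 979.8 ± 193 CPM, and a difference of 0.15 ± 0.29 (SE). Afdn, the gene of the junctional scaffold afadin, had a difference of -3.05 ± 1.46 (SE), and Ptprb, the endothelial phosphatase VE-PTP, of -1.32 ± 1.41 (SE).

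Tight junction and other contact genes were alike in this, with 8 positive and 5 negative of 13 tested (median 0.55) and 0 called. Over all tested genes, 45.5% had a positive difference and 0.119% were called. Esam, an endothelial adhesion molecule of tight junctions, had 171 to 366 CPM in the control and 620.2 to 1002 CPM in the anti-Dll4 libraries. Cldn5, the main claudin of the blood-retina barrier, had 85.0 to 199.8 CPM and 313 to 392 CPM. Neither passed (limma adjusted p = 0.0768 and 0.358). Cgn, the gene of the epithelial and endothelial tight junction protein cingulin, had 444 ± 142 CPM (SD, n = 3) and 192 ± 135 CPM (SD, n = 4), a difference of -1.43 ± 0.53 (SE, limma adjusted p = 0.593). Amotl2, whose product links VE-cadherin to actin, had 44, 37 and 145 reads under control IgG and 0, 1, 5 and 10 under anti-Dll4. These groups did not overlap, with the anti-Dll4 group lower (difference -4.04 ± 1.65, SE, limma adjusted p = 0.671). Groups did not overlap, in either direction, for 7.59% of tested genes. Esam and Cldn5 were also among the 5 whose profiles lay nearest to the mean profile of the 9, with distances of 0.26 and 0.21 log2 units over 7 libraries, out of 4285 genes averaging 5 or more on the log2 scale. The other three were Ppia (0.15), Ift81 (0.20) and Txn1 (0.26), none of which is an endothelial marker. Nearest to Egfl7 alone were Rplp1, Pros1 and Lasp1, at 0.21, 0.21 and 0.22, and nearest to Cd93 was Atp1b3 at 0.42.

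Other endothelial surface genes had 12 positive and 4 negative differences among 16 tested (median 1.44), and Ly6c1, an endothelial surface antigen of the mouse, was the 1 called. Over all tested genes, 45.5% had a positive difference and 0.119% were called. Ly6c1 rose to 732 ± 200.4 CPM (SD, n = 4) from 175 ± 51.8 CPM (SD, n = 3), by 2.06 ± 0.38 on the log2 scale (SE, limma adjusted p = 0.0319). It passed in 7 of 16 alternative fits, with adjusted p from 0.0202 to 0.628, and not without control IgG 1 or 4 or anti-Dll4 1, 2 or 4 (0.0696 to 0.145), in voom (0.0511), without the mean-variance trend (0.612) or with a replicate block on title or column numbers (0.628 and 0.178). Podxl, a sialomucin like Emcn, had 895 to 1781 CPM in the control and 2196 to 4014 CPM in the anti-Dll4 libraries, with a difference of 1.10 ± 0.26 (SE, limma adjusted p = 0.137). Podocalyxin, its product, is not limited to endothelium. The 4 genes with a negative difference included 3 receptors of vascular growth factors. Kdr (VEGF receptor 2) had 354 ± 99.8 CPM (SD, n = 3) in control and 279 ± 134 CPM (SD, n = 4) in anti-Dll4 libraries, a difference of -0.46 ± 0.47 (SE). Flt1 (VEGF receptor 1) had 572 ± 131 and 485 ± 259 CPM (-0.38 ± 0.41, SE), and Flt4 (VEGF receptor 3), with 0 to 121 reads per library, -2.95 ± 1.68 (SE). The fourth was Adgrf5, an adhesion receptor, at -0.30 ± 1.40 (SE).

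The relatives and ligands of CD93 numbered 4 tested genes, each with a positive difference, and 1 was called. Of all tested genes, 45.5% had a positive difference and 0.119% were called, and the list was chosen with earlier results known. The called gene was Igfbp7, a secreted matrix protein that binds CD93. Igfbp7 stood at 794 ± 328 CPM (SD, n = 4) under anti-Dll4 and at 139.9 ± 26.1 CPM (SD, n = 3) under control IgG, so it rose by 2.41 ± 0.42 on the log2 scale (SE, limma adjusted p = 0.0166). It passed in 8 of 16 alternative fits, with adjusted p from 0.0106 to 0.562, and not without control IgG 1 or anti-Dll4 2, 3 or 4 (0.0516 to 0.123), in voom (0.0761), without the mean-variance trend (0.562) or with a replicate block on title or column numbers (0.251 and 0.0582). Mmrn2, the gene of multimerin 2, the matrix ligand of CD93 and CLEC14A, had 77, 226 and 53 reads in the control and 128, 219, 409 and 141 in the anti-Dll4 libraries, groups that overlapped (difference 0.90 ± 0.72, SE). Thbd, which encodes the anticoagulant receptor thrombomodulin of the same lectin group, swung between 0 and 192 reads.

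Genes of the Weibel-Palade body, the store of von Willebrand factor, had 9 positive and 5 negative differences among 14 tested (median 0.25). Of these 0 were called, where 0.119% of all tested genes were. Selp, the gene of P-selectin stored in the same granules, had 0, 0 and 2 reads in the control and 0, 0, 8 and 257 in the anti-Dll4 libraries, so that its difference came from anti-Dll4 4. Angpt2, the granule-stored ligand of the Tie2 receptor, was below the filter with 0, 0 and 53 reads against 0, 1, 0 and 0. Ligands and co-receptors of ROBO4 were the list with a median below 0 (-0.33, with 3 positive and 5 negative of 8). Unc5b, the endothelial netrin receptor that ROBO4 binds, had 167 ± 87.3 CPM (SD, n = 3) and 110.3 ± 65.5 CPM (SD, n = 4).

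Partners of the remaining genes were called in 0 cases, where 0.119% of all tested genes were called. Mcam ligands and partners had 8 of 11 positive (median 1.01), among them the laminin chains Lama4 and Lamc1, with 0 to 2 reads per control library and 0 to 76 and 1 to 64 reads per anti-Dll4 library. Signalling partners of PECAM-1 had 6 of 10 positive (median 0.25). Ptpn11, the phosphatase SHP-2 that PECAM-1 recruits, had 103 ± 45.1 CPM (SD, n = 3) and 85.7 ± 55.6 CPM (SD, n = 4). Relatives and partners of Egfl7 had 7 of 8 positive (median 0.85). Egfl8, its nearest relative, had 61, 70 and 80 reads in the control and 105, 136, 45 and 338 in the anti-Dll4 libraries, so its groups overlapped where those of Egfl7 did not.

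**Figure D5:**
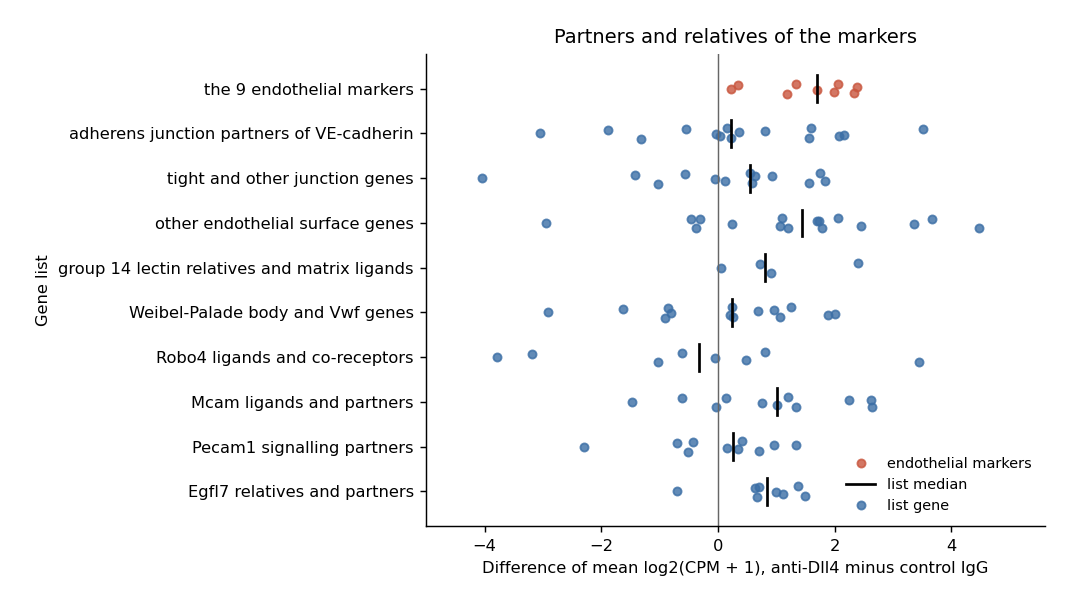
Difference of mean log2(CPM + 1), anti-Dll4 minus control IgG, for the 9 endothelial markers and for the tested genes of 9 lists of partners and relatives, with 1 point per gene and a bar at each median. Medians run from -0.33 for Robo4 ligands and co-receptors to 1.44 for other endothelial surface genes, and that of the 9 markers is 1.70.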

How the data were processed

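RNA pulled down with tagged ribosomes was read with a QuantSeq 3' mRNA-Seq kit, per the labels' protocols. The submitters' processing notes name cutadapt, TopHat2, bedtools and hg19, a human build, although the symbols are those of the mouse. The sources used here do not state the annotation, counting rule or strand, and no gene coordinate was taken from the table. The authors deposited log10 values, which turned back to CPM plus 1. CPM summed to 1000000 per library, and 100% of the values were whole multiples of 1 read (tolerance 0.0001), so reads are given as computed. The table lists genes with at least 10 reads over the 7 libraries, and 3 reads are 1.69 to 2.21 CPM. Reads are not independent molecules.

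Values were tested as log2(CPM + 1) with limma 3.58.1 in R 4.3.3 (antibody as the only term, mean-variance trend, two-sided, Benjamini-Hochberg over 10899 genes). The fit was tested on simulated data. Differences are on the log2(CPM + 1) scale, and for genes with few reads in some libraries they depend on the added 1: Ecscr had -0.0037, 0.22 and 0.50 and Mcam 2.24, 2.06 and 1.46 with a pseudocount of 0.5, 1 and 5. All 10 genes of the rule are named, and genes of partner lists in their roles; other genes are those with the smallest profile distances, 5 to the mean and 3 to a gene. The members and lists were chosen with earlier results of these data known. In GENCODE, 4 of the 9 genes (Cdh5, Mcam, Ecscr and Egfl7) overlap another gene, 0 of those being in the table. Each of the 9 differed in its reads from every other gene. Alternatives were another pseudocount, filter, scaling or test, a replicate block, and leaving out each library. With a replicate block, a library whose number no library of the other group shares drops out of the difference.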

Additional observations from a re-analysis of the deposited data

How the results depend on the processing

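With 16 alternatives to the fit, 0 of the 9 endothelial markers were called in any, and at least 7 of them kept a positive difference in each. Their median difference of 1.70 ran from 1.15 to 1.80 with a library left out and went to 0.91 with a replicate block on title numbers. Of 143 single-gene values, 9 changed sign. Ecscr went to -0.0037 with a pseudocount of 0.5, -0.20 in voom, -0.16 and -0.59 with a replicate block on title and on column numbers, and -0.61 to 1.17 with a library left out. Pecam1 went to -0.37 with the block on title numbers and ran from -0.19 to 0.76 with a library left out. The block on title numbers, with which no gene of the 9 was called, also took Mcam from 2.06 to 0.31, Emcn from 1.99 to 0.64, Cdh5 from 1.70 to 3.97 and Vwf from 2.33 to 3.68. Differences with that block rest on control IgG 3 and 4 and anti-Dll4 3 and 4 alone, as the remaining libraries share no title number. The block on column numbers likewise leaves out anti-Dll4 2. The count of all genes called, 13, went to 0 without the mean-variance trend, 38 in voom, 3 and 4 with the block on title and column numbers, and 3 to 22 with a library left out (3 without control IgG 1 or anti-Dll4 4, 6 without anti-Dll4 1 or 2, and 22 without control IgG 3). The cause was not tested. Replicate numbers shared by the groups were not used as pairs: deviations from the group means of same-numbered columns correlated at 0.0457 to 0.0672, under the limit of 0.1. Each was the best match of both its libraries, a hint from the data and not the design. Ecscr, Emcn, Mcam and Vwf had 0 to 4 reads in at least 1 library, and in those libraries counting error is large.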
